A study of Mus musculus with 9 samples.

Results

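The colony-stimulating factors and related myeloid growth cytokines were taken as 9 genes matched by symbol: Csf1, Csf2, Csf3, Csf1r, Il34, Kitl, Lif, Il6 and Il11. They are 9 of the 55487 genes in the count table, and 7 of them passed the filter on low counts, as did 16955 genes in all. The cells were MCEC, a mouse cardiac endothelial cell line, as unmodified cells (WT), cells with knockdown of the transcription factor Zbtb46 (KD) and cells with enforced Zbtb46 expression (OE). Each group had 3 RNA-seq libraries. All 3 groups share the MCEC background. The method of knockdown or overexpression, any control vector, and whether a modified line was 1 clone or a pool are not given in the sources used here. The labels do not say that replicates were separate cultures, so the p-values measure only the spread between these libraries, which may be technical.

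Total counts ran from 39491828 to 55745849 per library, and ribosomal RNA genes took 7.32% to 18.03% of them. Counts scaled to a common total (CPM, with mean ± SD over 3 libraries) of Zbtb46 itself were 13.7 ± 0.623 in WT and 11.2 ± 0.537 in KD, and reached 191 ± 2.67 in OE. The knockdown was therefore small, with a log2 fold change of -0.28 (SE 0.055, edgeR adjusted p = 0.00144), while OE was 14.02-fold above WT. Defining endothelial markers were near 0: of 10 endothelial genes, 7 were under 1 CPM in every group, among them Pecam1 and Cdh5, and Erg had no count. The endothelial genes summed to 10.4 to 10.8 CPM in WT, 6.15 to 6.81 in KD and 4.92 to 6.20 in OE. Of 11 myeloid markers, 9 were under 1 CPM in every group and Ly6g had no count, with sums of 6.31 to 6.52 CPM in WT, 6.41 to 6.66 in KD and 6.31 to 7.82 in OE. Of 7 fibroblast genes, 4 were under 1 CPM in every group and none was at 0, and the sum was 5110 to 5676 CPM in WT, 4848 to 4912 in KD and 4039 to 4133 in OE. Most of that sum was Col1a1, at 5259 ± 290 CPM in WT and 4032 ± 47.3 in OE. Of 6 smooth muscle and pericyte genes, 5 were under 1 CPM in every group and none was at 0, with sums of 8.67 to 10.8 CPM in WT, 4.09 to 4.73 in KD and 2.98 to 3.60 in OE. Of 6 cardiomyocyte genes, 5 were under 1 CPM in every group and 1 was at 0, with sums of 0.773 to 1.05, 0.697 to 1.03 and 1.41 to 1.58 CPM. The endothelial, fibroblast and smooth muscle sums moved with the groups, and the small cardiomyocyte sum was higher in OE. The part of these sums in the results below was not tested. In these bulk samples, fewer cells of a type and less RNA per cell cannot be told apart.

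Colony-stimulating factors direct the growth and survival of myeloid cells. Csf1 (M-CSF) and Il34 are the ligands of Csf1r, the receptor tyrosine kinase of the macrophage lineage, while Csf2 (GM-CSF) and Csf3 (G-CSF) act on granulocytes and their precursors through cytokine receptors. Kitl (stem cell factor) binds Kit on haematopoietic progenitors and mast cells. Lif, Il6 and Il11 belong to the family that signals through the shared receptor subunit gp130 and the JAK-STAT pathway. Endothelial and stromal cells are known sources of several of these ligands.

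The promoters of Csf1 and Lif are shown because these were the members with the best-measured changes. Both come from RefSeq on GRCm38.p6, 5′ to 3′ on the gene's strand, with the matches of 8 searched motifs in capitals. The Csf1 window is chr3:107760470-107760719 on the minus strand and the Lif window, cut to end before the annotated start, is chr11:4257318-4257556 on the plus strand.
Csf1: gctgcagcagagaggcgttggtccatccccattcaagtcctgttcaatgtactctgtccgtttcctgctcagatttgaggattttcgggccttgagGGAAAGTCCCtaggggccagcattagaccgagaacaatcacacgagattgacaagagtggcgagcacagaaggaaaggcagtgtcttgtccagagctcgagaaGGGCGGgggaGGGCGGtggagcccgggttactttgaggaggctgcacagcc
Lif: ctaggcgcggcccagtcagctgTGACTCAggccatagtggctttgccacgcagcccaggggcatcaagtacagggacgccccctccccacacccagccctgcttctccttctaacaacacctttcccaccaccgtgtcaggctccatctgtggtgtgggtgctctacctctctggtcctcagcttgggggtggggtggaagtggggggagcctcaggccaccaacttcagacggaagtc
The capitals in Csf1 mark a match to the NF-kappa-B consensus that begins at base -154 from the RefSeq start and a pair of GC boxes (GGGCGG) at -51 and -41. The capitals in Lif mark an AP-1 match (TGANTCA) at -228 from the RefSeq start, and the 11 bases between the printed window and that start are not shown. Both strands were searched. Of 32851 promoters, 3.9% held the NF-kappa-B consensus, 32.7% the GC box and 6.75% the AP-1 motif. The CRE (TGACGTCA) was in 1.55% of promoters and a STAT site (TTCNNNGAA) in 7.02%. The TATA box (TATAAA) was in 12.4% of them. The ETS core was searched as CCGGAA and found in 12.0%. A C/EBP-like site (TTNNGNAA) was in 36.8%. None of these last 5 motifs was found in either window. A match is a description of the sequence and not a bound site. RefSeq windows were found for 6 of the 9 members.

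Csf1 was by far the most abundant member per unit of length. Scaled by exon length to transcripts per unit of library total (TPM), Csf1 was at 386 ± 89.1 in WT, rank 191 of the 16934 tested genes with a length. It ranked 162 in KD, at 437 ± 28.1, and 549 in OE, at 141 ± 8.97. In WT the order of TPM levels after Csf1 was Lif (15.4 ± 2.40), Kitl (13.9 ± 4.48), Il11 (1.12 ± 0.397), Il6 (0.543 ± 0.263), Il34 (0.244 ± 0.062), Csf1r (0.216 ± 0.105) and Csf3 (0.149 ± 0.022), with Csf2 at 0. From Lif to Csf3, neighbours in this order overlapped between libraries except Kitl and Il11, while Csf3 and Csf2 were both near the limit of detection. The ranges of Lif and Kitl overlapped in WT and in KD. In OE they did not: Kitl ran from 11.3 to 12.3 TPM and Lif from 6.18 to 7.87, so Kitl took the place after Csf1. The cells thus held much Csf1 mRNA, moderate Kitl and Lif mRNA, and little of the other 6.

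Csf1 rose in KD and fell in OE. It was at 806, 838 and 828 CPM in the 3 WT libraries, 977, 994 and 1029.6 in KD, and 362, 374 and 361 in OE. The groups did not overlap: KD was highest in every library and OE lowest. Among all tested genes, 34.7% had no overlap between KD and WT libraries, 45.1% between OE and WT, and 55.4% between OE and KD. The gene (ENSMUSG00000014599, chr3:107741048-107760469, minus strand, GRCm38) was covered by 16258 to 50258 counts per library. Against WT at 824 ± 16.2 CPM (SD, n = 3), KD at 1000.2 ± 26.8 was 1.21-fold higher, a log2 fold change of 0.28 (SE 0.028, edgeR adjusted p = 1.46e-05). OE at 366 ± 7.07 was 2.25-fold lower than WT, with a log2 fold change of -1.17 (SE 0.023, adjusted p = 1.94e-15). OE was 2.73-fold lower than KD (log2 fold change -1.45, SE 0.027, adjusted p = 3.95e-17). The rise in KD is smaller than 1.5-fold, and it did not pass a test against that minimum. KD and OE were compared with the same WT libraries, so the 2 comparisons are not independent.

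The second Csf1r ligand and the receptor itself were scarcely present. Il34 had 9, 8 and 10 counts in WT, 1, 6 and 8 in KD, and 16, 18 and 8 in OE. On the CPM scale WT overlapped both other groups, and the OE libraries (0.178 to 0.363) lay above the KD libraries (0.0199 to 0.164). Its log2 fold change was -0.82 in KD (95% interval -2.27 to 0.61, adjusted p = 0.455) and 0.60 in OE against WT (-0.66 to 1.86, adjusted p = 0.485). In OE against KD it was 1.41 (SE 0.63, interval 0.068 to 2.80, adjusted p = 0.0881). Csf1r was at 0.369, 0.672 and 0.425 CPM in WT, 0.616, 0.653 and 0.451 in KD, and 0.128, 0.323 and 0.356 in OE. All OE libraries were below all WT and KD libraries, and WT overlapped KD. The log2 fold change of Csf1r was -0.88 in OE against WT (SE 0.46, interval -1.83 to 0.055, adjusted p = 0.138) and -1.08 against KD (SE 0.42, interval -2.02 to -0.15, adjusted p = 0.0581). In KD against WT it was 0.20 (interval -0.67 to 1.08, adjusted p = 0.803). Neither gene passed the threshold in any comparison in the edgeR fit over all 9 libraries. In OE against KD both passed with limma-voom (adjusted p = 0.0466 for Csf1r and 0.0486 for Il34). Csf1r also passed there in edgeR when only the groups compared were fitted (adjusted p = 0.046), a fit in which Il34 gave no value. With 6 to 40 Csf1r counts and 1 to 18 Il34 counts per library, these values are imprecise. Csf1r is itself known as a marker of the myeloid lineage. The myeloid markers above 1 CPM were Cd68, at 3.76 ± 0.176 CPM in WT, 4.86 ± 0.118 in KD and 3.40 ± 0.709 in OE, and Cd14, at 2.37 ± 0.136, 1.47 ± 0.188 and 3.56 ± 0.737. Cd14 was called lower in KD (adjusted p = 0.0151) and higher in OE (adjusted p = 0.0159) against WT, and the part of these markers in the Csf1r values was not tested.

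The granulocyte factors were at or near the limit of detection and were not tested. Csf2 had no count in the 6 WT and KD libraries and 2, 1 and 1 counts in OE. A count of 0 allows up to 3 counts, which is 0.0538 to 0.076 CPM in these libraries and covers counting error only. Csf3 had 4 counts in each WT library, 10, 2 and 22 in KD, and 8, 2 and 8 in OE. The KD libraries of Csf3 spanned both other groups, and no fold is given for either gene.

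Kitl was expressed at a moderate level, and no difference between groups passed the test. It was at 29.7, 38.5 and 30.6 CPM in WT, 35.2, 35.2 and 37.0 in KD, and 34.2, 32.4 and 35.0 in OE. WT replicate 2 was above every other library. WT overlapped both other groups, and the OE libraries lay below the KD libraries by a narrow margin. The log2 fold change was 0.12 in KD (interval -0.050 to 0.28, adjusted p = 0.345), 0.04 in OE against WT (-0.13 to 0.20, adjusted p = 0.779) and -0.08 in OE against KD (-0.25 to 0.085, adjusted p = 0.456). The interval for KD reaches the size of the Csf1 rise there. Without WT replicate 2 Kitl passed the threshold as higher in both, at 0.25 in KD (adjusted p = 0.00394) and 0.16 in OE (adjusted p = 0.0476).

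Among the gp130 ligands, Lif fell in OE. It was at 29.8, 26.9 and 25.7 CPM in WT, 27.5, 28.2 and 27.4 in KD, and 16.2, 15.8 and 14.1 in OE. The OE libraries lay below all others, and WT overlapped KD. Lif (ENSMUSG00000034394, chr11:4257557-4272514, plus strand, GRCm38) had a log2 fold change of -0.84 from WT to OE, 1.79-fold lower (SE 0.088, edgeR adjusted p = 1.24e-08). It was 1.81-fold lower in OE than in KD (log2 fold change -0.85, SE 0.063, adjusted p = 5.53e-09). In KD against WT the log2 fold change was 0.02 (interval -0.13 to 0.16, adjusted p = 0.917). Lif lies in a region where many genes were lower in OE: the median log2 fold change of tested genes in the 20 Mb window was -0.52, and -0.32 of the Lif difference remained after that median was subtracted. For Csf1 the same window median was 0.06, and the difference from it was -1.23. Whether the shift of the Lif region has a part in the Lif result was not tested.

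Il6 also passed the test in OE against WT, on few counts. It had 13, 30 and 31 counts in WT, 20, 12 and 18 in KD, and 6, 14 and 4 in OE, or 0.514 ± 0.176, 0.356 ± 0.049 and 0.166 ± 0.103 CPM. The OE libraries were below every WT and KD library. OE was 3.08-fold lower than WT, with a log2 fold change of -1.60 (SE 0.47, edgeR adjusted p = 0.0164). The call was lost without WT replicate 3 (adjusted p = 0.0824), without OE replicate 1 (0.0648) and without OE replicate 3 (0.0744). The log2 fold change was -0.53 in KD against WT (interval -1.50 to 0.44, adjusted p = 0.486) and -1.07 in OE against KD (-2.18 to 0.011, adjusted p = 0.108). Without OE replicate 2 the latter passed, at -1.69 (adjusted p = 0.0358).

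Il11 was near 1 CPM with no call in any comparison. It had 28, 59 and 46 counts in WT, 35, 39 and 32 in KD, and 40, 42 and 30 in OE, and the groups overlapped. Its log2 fold change was -0.26 in KD (interval -0.89 to 0.36, adjusted p = 0.615) and -0.23 in OE against WT (-0.85 to 0.40, adjusted p = 0.608). A p-value that misses the threshold does not show that levels were equal.

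**Figure D1:**
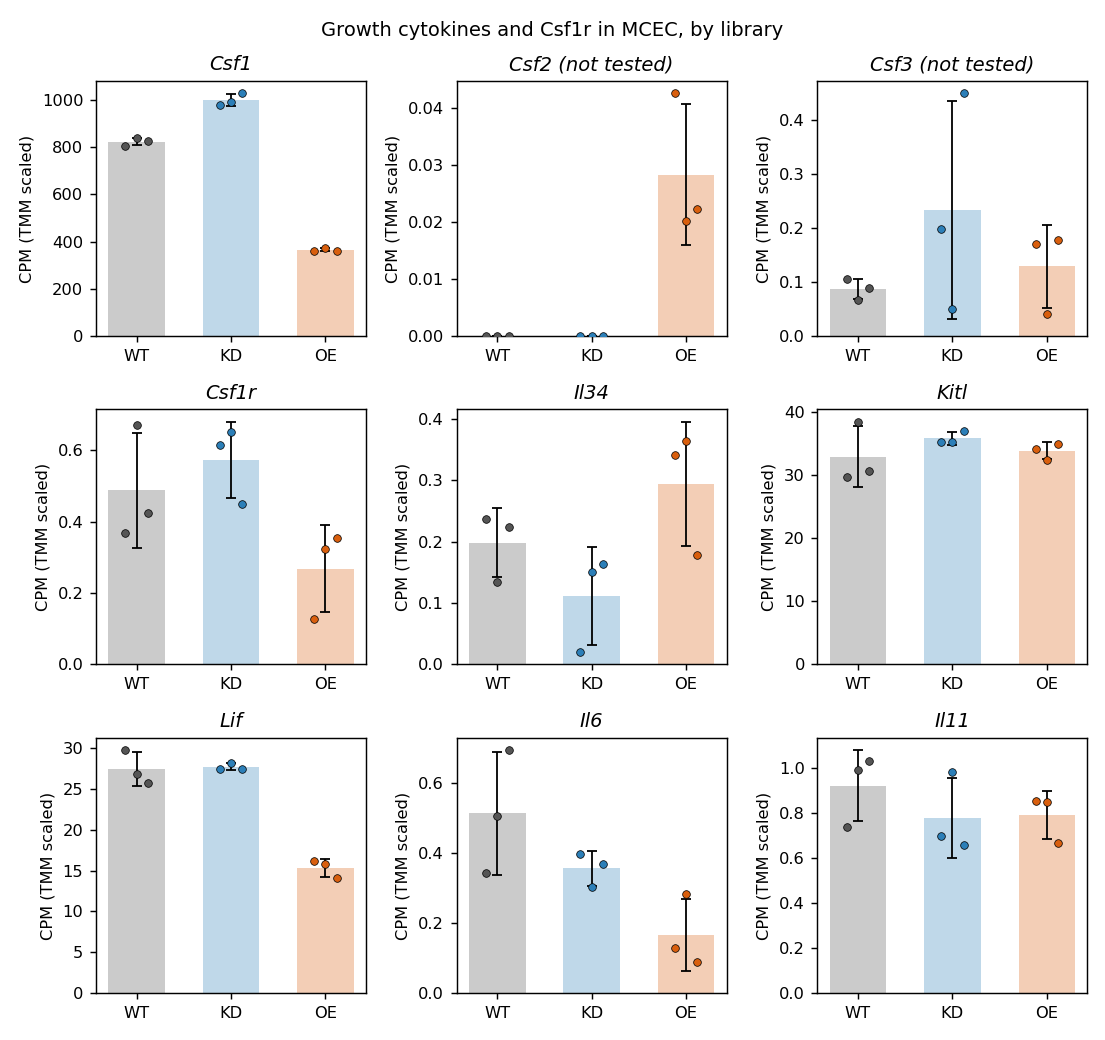
TMM-scaled CPM of the 9 members in each library (points), with group means (bars) and SD (error bars) for WT, KD and OE; each panel has its own linear axis from 0. Csf1 is ordered KD, WT, OE without overlap, and the OE libraries of Lif, Il6 and Csf1r lie below all others.

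Counted together, 1 of the 7 tested members was called in KD against WT (Csf1, higher), where 21.3% of all tested genes were called with 11.0% called higher and 10.4% lower. In OE against WT 3 of 7 were called, all lower (Csf1, Lif and Il6), where 36.4% of all tested genes were called, 17.0% higher and 19.5% lower. In OE against KD 2 of 7 were called, both lower (Csf1 and Lif), where 41.5% of all genes were called, 19.4% higher and 22.1% lower. The 7 had a median log2 fold change of 0.015 for KD and -0.84 for OE relative to WT, and -0.85 for OE relative to KD. Over all tested genes these medians were -0.002, 0.002 and 0.011. The shares of members called were thus near the shares of all genes, and no more is read from these counts.

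**Figure D2:**
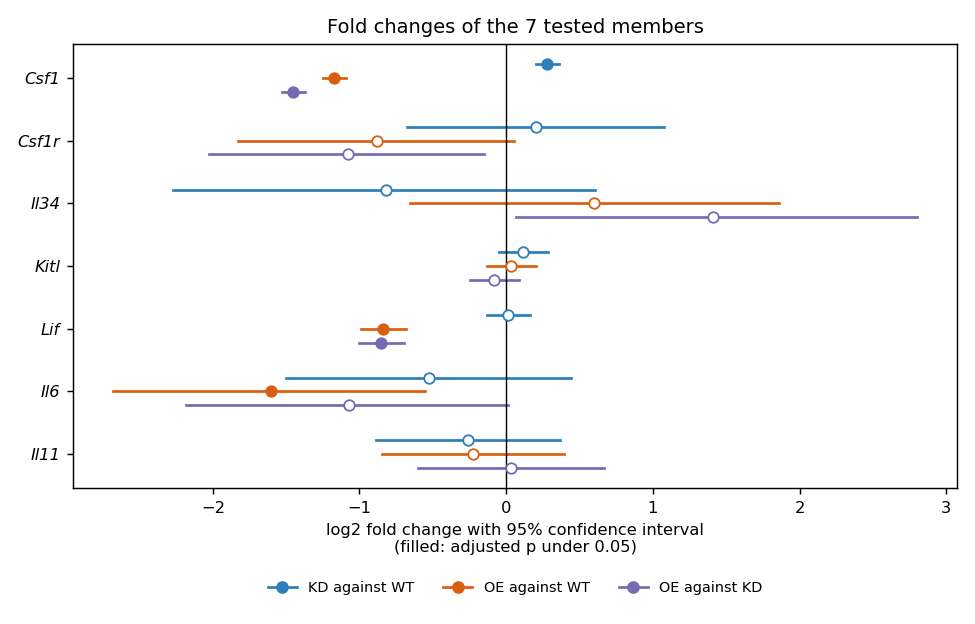
Log2 fold changes of the 7 tested members (horizontal axis) with 95% confidence intervals from the quasi-likelihood model, for KD against WT, OE against WT and OE against KD; filled points have an adjusted p under 0.05. Csf1 has the narrowest intervals, and those of Csf1r, Il34, Il6 and Il11 are wide because few counts lie behind them.

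The receptors of these ligands, with the oncostatin M receptor Osmr, were then counted from a list of 12, of which 9 were tested. In KD against WT 2 were called, both higher (Il6st and Osmr), where 11.0% of all tested genes were higher and 10.4% lower. In OE against WT 2 were higher and 4 lower, Osmr among the lower, where 17.0% of all genes were higher and 19.5% lower. The list medians were -0.07 and -0.30. Il6st, the shared gp130 subunit, was at 344 ± 37.3 CPM in WT, 412 ± 3.17 in KD and 198 ± 6.47 in OE. Its log2 fold change was 0.26 in KD (SE 0.093, adjusted p = 0.00438) and -0.80 in OE (SE 0.097, adjusted p = 1.37e-08). With library totals alone the KD call was lost (0.22, adjusted p = 0.0748), and after its 20 Mb window median was subtracted the values were 0.09 and -0.54. Il6ra, the ligand-binding Il6 receptor, rose in OE from 1.05 ± 0.116 to 2.53 ± 0.832 CPM (log2 fold change 1.26, SE 0.28, adjusted p = 0.00122). Sdc1, a syndecan proteoglycan, fell in OE from 71.5 ± 1.80 to 52.1 ± 4.53 CPM (-0.46, SE 0.076, adjusted p = 2.53e-06). The GM-CSF receptor chains Csf2ra and Csf2rb were below the filter.

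Of 7 other gp130 ligands and partners, 4 were tested, with list medians of -0.16 in KD and 0.10 in OE against WT. Of all tested genes, 11.0% were higher and 10.4% lower in KD, and 17.0% and 19.5% in OE against WT. In the list 1 gene was called, lower in both KD and OE against WT. That gene was Ctf1, cardiotrophin, at 10.01 ± 1.04 CPM in WT, 8.09 ± 0.368 in KD and 7.64 ± 0.0996 in OE. It fell in OE (log2 fold change -0.39, SE 0.084, adjusted p = 0.0051), and its KD value was -0.30 (adjusted p = 0.038). The KD call was lost under 10 alternatives, among them the one without WT replicate 1 (adjusted p = 0.191). Clcf1, a cardiotrophin-like cytokine at 35.98 ± 1.53 CPM in WT, passed no test in either comparison with WT.

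Of 16 JAK-STAT genes, all tested, 1 was called higher and 3 lower in KD, where 11.0% of all tested genes were called higher and 10.4% lower. In OE against WT 2 were called higher, 9 lower and 5 not at all, where 17.0% of all genes were higher and 19.5% lower. The medians were -0.01 and -0.28. Stat5b, a transcription factor of cytokine signaling, fell from 63.5 ± 1.23 to 42.5 ± 1.97 CPM in OE (log2 fold change -0.58, SE 0.041, adjusted p = 1.02e-08). Tyk2, a Janus kinase, fell from 26.3 ± 0.675 to 17.7 ± 0.419 CPM (-0.57, SE 0.029, adjusted p = 4.70e-07), and -0.22 of that remained after its window median was subtracted. Pim1, a kinase induced by STAT factors, rose from 35.4 ± 0.916 to 55.2 ± 3.08 CPM (0.64, SE 0.052, adjusted p = 1.27e-08).

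Transcription factors and RNA-binding proteins that induce these cytokines or govern the decay of their mRNA were 20 genes, all tested. In KD 1 was higher and 10 lower, with a median of -0.21, where 11.0% of all tested genes were higher and 10.4% lower. In OE against WT 9 were higher and 6 lower, with a median of -0.02, where 17.0% of all genes were higher and 19.5% lower. Fosl1, a subunit of AP-1, fell in KD from 2.24 ± 0.175 to 1.51 ± 0.315 CPM (log2 fold change -0.55, SE 0.19, adjusted p = 0.0303) and rose in OE to 6.37 ± 0.248 (1.51, SE 0.071, adjusted p = 1.84e-07). Its KD call was lost without WT replicate 1 (adjusted p = 0.0958), KD replicate 1 (0.0603) or KD replicate 2 (0.153). Zfp36l2, which promotes decay of AU-rich mRNA, fell in KD from 218 ± 11.0 to 188 ± 4.48 CPM (-0.21, adjusted p = 0.00128) and in OE to 158 ± 4.20 (-0.46, SE 0.048, adjusted p = 4.17e-08). Ybx1, an RNA-binding protein, fell in KD from 908 ± 41.2 to 809 ± 13.8 CPM (-0.17, SE 0.041, adjusted p = 0.00444) and rose in OE to 1300.4 ± 29.3 (0.52, SE 0.042, adjusted p = 1.46e-09). Less its window median, Ybx1 was -0.02 in KD and 0.16 in OE.

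Proteases and cofactors that release membrane-bound Csf1, Kitl or their receptors were listed together with their inhibitor Timp3, as 8 tested genes. Of these, 2 were higher and 2 lower in KD, and 1 higher and 5 lower, Timp3 among them, in OE against WT. Among all tested genes 11.0% were higher and 10.4% lower in KD, and 17.0% and 19.5% in OE against WT. The list medians were 0.02 and -0.25. Adam10, a membrane sheddase, fell in KD from 426 ± 28.9 to 371 ± 4.40 CPM (log2 fold change -0.20, SE 0.057, adjusted p = 0.00415) and in OE to 185 ± 8.83 (-1.20, SE 0.068, adjusted p = 6.17e-14). Its values less the window median were -0.31 and -0.86. Timp3, an inhibitor of such proteases, fell in OE from 462 ± 35.1 to 231 ± 4.94 CPM (-0.9996, SE 0.065, adjusted p = 8.32e-13). Rhbdf2, which carries Adam17 to the cell surface, rose in OE from 25.1 ± 1.80 to 47.6 ± 1.83 CPM (0.92, SE 0.067, adjusted p = 2.43e-09).

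Of 14 other growth factors and cytokines, 6 were tested, with medians of 0.07 in KD and -0.44 in OE against WT. In KD 1 was higher and 1 lower, where 11.0% of all tested genes were higher and 10.4% lower. In OE against WT 1 was higher and 2 lower, where 17.0% of all genes were higher and 19.5% lower. Il33, an alarmin of the Il1 family, fell from 38.8 ± 2.53 CPM in WT to 28.6 ± 1.09 in KD (log2 fold change -0.44, SE 0.064, adjusted p = 5.89e-05) and 11.7 ± 0.707 in OE (-1.73, SE 0.074, adjusted p = 9.98e-14). Vegfa, the endothelial growth factor, rose from 125 ± 3.72 CPM to 171 ± 2.61 in KD (0.45, adjusted p = 2.01e-07) and 165 ± 7.01 in OE (0.40, adjusted p = 2.56e-07). Il15 fell in OE from 3.19 ± 0.370 to 1.82 ± 0.008 CPM (-0.81, SE 0.095, adjusted p = 0.000471). Over the 6 lists 24 of 63 tested genes (38.1%) were called in KD against WT, beside 21.3% of all genes. In OE against WT 42 (66.7%) were called, beside 36.4% of all genes. The lists were chosen with earlier results of these data known, so no more is read from these shares.

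**Figure D3:**
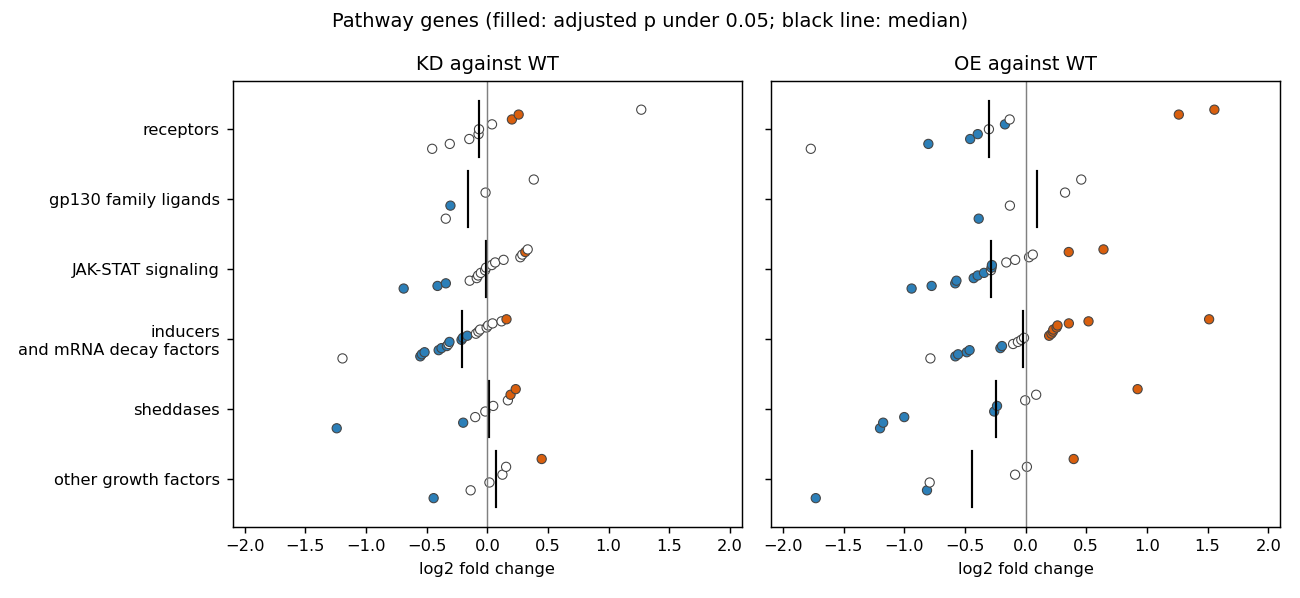
Log2 fold change against WT (horizontal axis) of each tested gene in the 6 lists, in KD (left) and OE (right); orange and blue points passed the test as higher and lower, white ones did not, and the black line is the list's median. In OE the JAK-STAT, receptor and sheddase medians lie below 0, at -0.28, -0.30 and -0.25. The sheddase list includes the inhibitor Timp3.

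The genes next to Csf1 and Lif were counted as a description, and the difference between the loci was not tested. Over all tested genes, 36.4% were called in OE against WT and 21.3% in KD against WT. Within 500 kb of Csf1, 22 genes were tested, of which 2 were higher and 7 lower in OE against WT, with a median log2 fold change of -0.13. The nearest, Ahcyl1, fell by 0.58 on the log2 scale (adjusted p = 1.32e-10). Within 500 kb of Lif, 21 genes were tested, of which 1 was higher (Castor1) and 14 were lower, with a median of -0.55. In KD against WT the neighbours of Csf1 had 1 call higher and 6 lower, and those of Lif 0 higher and 3 lower.

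**Figure D4:**
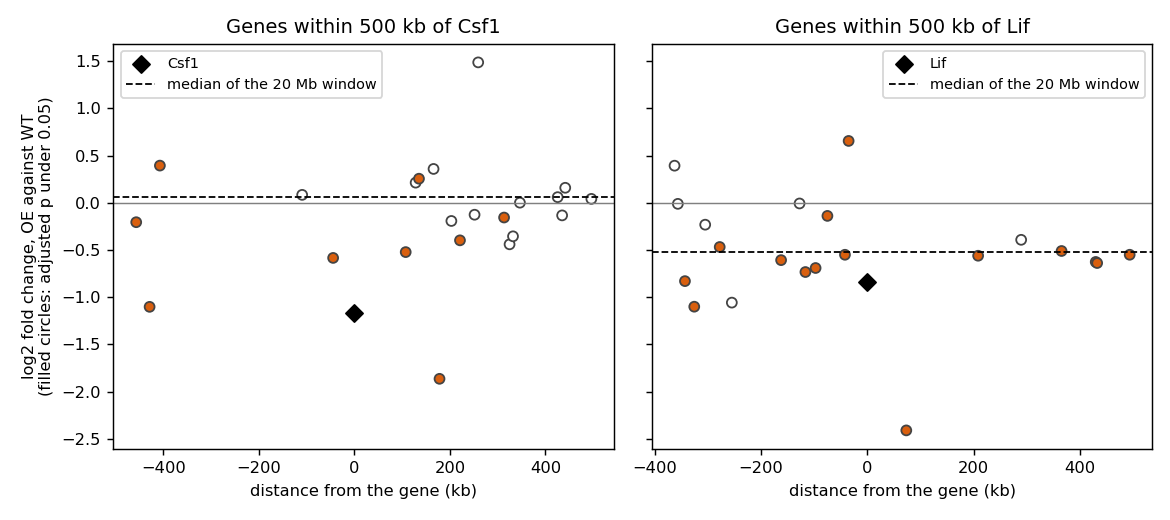
Log2 fold change in OE against WT (vertical axis) of tested genes within 500 kb of Csf1 (left) and Lif (right) by distance in kb; filled circles passed the test, the diamond is the member and the dashed line the median of its 20 Mb window. Csf1, at -1.17, lies below its window median of 0.06, and Lif, at -0.84, below its window median of -0.52. The genes within 500 kb have medians of -0.13 for Csf1 and -0.55 for Lif.

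The genes with the pattern most like each of the 3 members above 1 CPM were found by Pearson's r of log2 CPM over the 9 libraries among 9942 genes, as a description without a test, since the 9 points share the 3 groups. For Csf1 they were Fbln5 (r = 0.9986), Olfml2b (0.9985) and Vat1l (0.9982). Fbln5 was at 50.03 ± 3.54 CPM in WT, 74.6 ± 1.84 in KD and 11.5 ± 0.481 in OE, and Vat1l at 46.7 ± 1.80, 113 ± 4.90 and 1.81 ± 0.370, so both spanned a wider range than Csf1. For Lif they were Stoml1 (0.9957), Bcl2l1 (0.9951) and Nf2 (0.9917), and Nf2 lies within 500 kb of Lif. For Kitl they were Ptpn4 (0.9723), Wdcp (0.9596) and Gnl3l (0.9531). Kitl had no call between groups, and WT replicate 2, at 38.5 CPM, was its highest library. The part of that library in these r values was not tested. Ptpn4 was at 28.8 ± 6.31 CPM in WT, 32.2 ± 0.361 in KD and 28.8 ± 2.38 in OE.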

How the data were processed

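RNA from 9 MCEC samples, 3 each of WT, KD and OE, was selected for poly-A tails and sequenced from both ends, per the labels' protocols. The table the authors deposited holds raw whole-number counts per gene and library. The build is GRCm38 (mm10) per the submitters' processing notes; the aligner, counter, strand setting and annotation are not given in the sources used here, so overlapping or near-identical genes may share counts. Of 55774 rows, 168 genes on repeated rows were counted once, which left 55487 genes. Positions and exon lengths came from GENCODE M21 (55141 genes matched) and promoters from RefSeq on GRCm38.p6.

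Genes were kept with filterByExpr, scaled with TMM and fitted in edgeR 4.0.16 (R 4.3.3, limma 3.58.1) by a quasi-likelihood model over the 9 libraries with group as the only term. Calls were made at an adjusted p under 0.05 (Benjamini-Hochberg, 16955 genes). With 3 libraries a group, the smallest two-sided p of an exact permutation test is 0.1, so single genes were judged by this model. Intervals (95%) came from the model, and SEs from the spread of log2 CPM within groups (prior count 2). TPM-like values kept ribosomal RNA in the total and serve only to order genes within a group. Data were also simulated for OE against WT (16592 genes). Of 149 genes changed 2-fold at 1 CPM or more 93.3% were recovered, and of 47 below it 14.9%. Among 155 calls 5.81% were unchanged genes. The real comparison had 6174 calls, so the cut on unadjusted p was stricter in the simulation. Its recovery rates therefore do not carry over to the data.

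Alternatives were DESeq2 1.42.0, limma-voom, other scalings and filters, only the groups compared, a replicate block, a minimum fold change of 1.5, subtraction of the 20 Mb window median and leaving out each library. The members and lists were chosen with earlier results of these data known. All 9 members were named, with the 3 genes of smallest p over the 3 groups in each of 6 lists (77 genes), and the 3 genes most like each member above 1 CPM, from genes of at least 5 CPM; 1 gene so chosen is left out of the text. Figures were drawn with matplotlib 3.10.9, and tables made in Python 3.11.15 with numpy 2.4.6 and pandas 2.3.3.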

Additional observations from a re-analysis of the deposited data

How the results depend on the processing

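Each comparison was recomputed under 21 alternatives. The Csf1 values kept their direction in all of them; its KD call was lost only with a minimum fold change of 1.5. The number of members called in KD against WT was then 0. In OE against KD 4 members were called with limma-voom, which added Csf1r (-1.16, adjusted p = 0.0466) and Il34 (1.68, adjusted p = 0.0486). With only the groups compared 3 were called there, Csf1r included (-1.09, adjusted p = 0.046). Leaving out 1 library each gave 1 to 2 members called in KD against WT, 2 to 4 in OE against WT and 2 to 3 in OE against KD. List genes called fell from 24, 42 and 39 to 0, 8 and 11 with a minimum fold change of 1.5; leaving out 1 library gave 19 to 26, 38 to 42 and 36 to 40. Over all genes a minimum fold change of 1.5 left 274, 794 and 1331 calls, from 3617, 6174 and 7031. The share of higher calls moved from 51.4% to 35.8% in KD and from 46.6% to 31.6% in OE against WT with library totals alone, and from 46.8% to 57.6% in OE against KD with upper-quartile factors. Same-numbered libraries did not deviate together, with correlations of -0.0421 to 0.049 over 9 pairs. Over 18 pairs with different numbers they were -0.061 to 0.0417. The labels do not say whether the numbers pair the samples, and correlations near 0 cannot decide it. The fit with the replicate block called 1, 3 and 2 members, as without it, and 3574, 6111 and 6969 genes in all; under it the Ctf1 call in KD was lost (adjusted p = 0.0501).

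Signs turned for these values, and the cause was not tested. Kitl in OE against WT was -0.03 with library totals alone and -0.033 to 0.159 when 1 library was left out. Lif in KD against WT was -0.013 with upper-quartile factors, -0.018 with library totals alone and -0.027 to 0.075 when 1 library was left out. The other ranges on leaving out 1 library were -0.074 to 0.222 for Il11, -0.203 to 0.014 for Clcf1 and -0.127 to 0.07 for Zfp36 in OE against KD. In KD against WT they were -0.08 to 0.027 for Clcf1, -0.022 to 0.007 for Stat5b, -0.057 to 0.048 for Timp3 and -0.129 to 0.018 for Lifr. With upper-quartile factors OE against KD was 0.011 for Vegfa, 0.01 for Socs3 and 0.047 for Zfp36. With at least 10 counts required in every library, Csf1r, Il34 and Il6 gave no value. With only the groups compared, Il34 gave none in KD against WT or in OE against KD. Members under 1 CPM rest on few counts. How often a 2-fold change at that level would be called in the data was not tested, since the simulation had a stricter cut on unadjusted p.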

Other observations

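The genes here belong to the same lists but were chosen after their values were seen. Kit, the receptor of Kitl, rose in OE from 0.508 ± 0.018 CPM in WT (SD, n = 3) to 1.49 ± 0.449 (log2 fold change 1.56, SE 0.27, edgeR adjusted p = 0.00127), while Kitl itself passed no test. Lifr, the receptor of Lif, fell in OE from 38.8 ± 3.97 to 29.6 ± 0.581 CPM (-0.39, adjusted p = 8.84e-05). Osmr, which pairs with gp130 to bind oncostatin M, was at 53.1 ± 4.50 CPM in WT, 61.2 ± 2.17 in KD and 47.3 ± 1.56 in OE, with log2 fold changes of 0.20 (adjusted p = 0.0168) and -0.17 (adjusted p = 0.0295). Both Osmr calls were lost under several alternatives, among them KD without WT replicate 1 (adjusted p = 0.0817) and OE without WT replicate 2 (adjusted p = 0.134).

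Socs3, Zfp36 and Jak3 fell in both modified groups. Socs3, a feedback inhibitor of gp130 signaling, was at 61.3 ± 3.66 CPM in WT, 48.3 ± 2.03 in KD and 46.6 ± 1.66 in OE (log2 fold changes -0.34, adjusted p = 0.000135, and -0.39, adjusted p = 9.46e-06). Zfp36 (tristetraprolin), which promotes decay of AU-rich mRNA, was at 28.2 ± 2.20, 19.4 ± 1.03 and 19.2 ± 2.64 CPM (-0.54, adjusted p = 0.000145, and -0.56, adjusted p = 4.14e-05). Jak3, a Janus kinase of lymphoid cells, was at 18.4 ± 0.720, 13.8 ± 0.762 and 9.58 ± 0.702 CPM (-0.41, adjusted p = 0.001, and -0.94, adjusted p = 1.77e-08). Both comparisons share the WT libraries.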
